A study of Mus musculus with 6 samples.

Results

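The genes described here are 10 members of the ATF4 amino acid stress pathway, *Atf4*, *Atf3*, *Ddit3*, *Trib3*, *Sesn2*, *Chac1*, *Asns*, *Psat1*, *Phgdh* and *Slc7a11*, found by their symbols among the 21639 entries of an RNA-Seq table. All 10 reached 1 RPKM on average over the 6 libraries, as did 11842 entries of the table, which serve as the background below. RPKM is a read count scaled to transcript length and library size, so that levels can be compared between genes. The libraries came from 3 mouse embryonic stem cell (ESC) lines, which carry the labels H2A.Z WT, KD and AP3 and are called so below, taken as ESCs (D0) and on D3 of differentiation into embryoid bodies (EBs), with 1 library for each condition.

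H2A.Z is a variant of histone H2A, and the comparison of these lines addressed what its acidic patch, a surface of the nucleosome, contributes to gene expression. The H2A.Z WT and H2A.Z AP3 lines carry a YFP-tagged H2A.Z transgene under a doxycycline-inducible CMV promoter with rtTA, introduced by lentivirus into KH2 ESCs and sorted for YFP. In AP3, 3 residues of the acidic patch are those of H2A. Both lines also carry short hairpins against the 3′ UTR of endogenous H2A.Z, selected with blasticidin, and the KD label names a line depleted of H2A.Z by hairpin. Whether the KD line also holds a transgene is not given in the labels. The strain label of all libraries is V6.5 (129SvJaexC57BL/6). ESCs were grown with serum and LIF on irradiated fibroblasts, which were left out for the final passage, in a medium supplemented with non-essential amino acids and L-glutamine. EBs were formed without LIF on plates to which cells do not attach, although the labels call the D3 samples ES cells too.

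*H2afz*, the gene targeted by the hairpins, was at 279 RPKM in WT ESCs, 343 RPKM in the ESC library labelled KD and 304 RPKM in AP3 ESCs. In EBs its levels were 258, 236 and 394 RPKM in the same order. The label was therefore not borne out by a lower *H2afz* level at D0, and reads from the transgene cannot be told apart from endogenous ones in this entry. Summed levels of 7 ESC markers were 1035 to 1099 RPKM in ESCs and 734 to 898 RPKM in EBs, and those of 8 early EB markers were 44.5 to 51.1 RPKM in ESCs and 122 to 160 RPKM in EBs. The sums of the 3 ESC libraries were close, but single markers in AP3 ESCs were not, as given beside the results for that library. Depth, which was read from the spacing of low values, lay between 16.35 and 31.6 M reads, and the AP3 ESC library was the deepest. Approximate reads behind a member's value ran from 70 for *Atf3* in AP3 EBs to 17852 for *Asns* in AP3 ESCs.

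ATF4 is a transcription factor whose protein is made more efficiently when eIF2alpha is phosphorylated, for example by the kinase GCN2 when amino acids run short or by PERK when proteins misfold in the endoplasmic reticulum. ATF4 can therefore act without a change in its own mRNA. With partners of the C/EBP family it binds the C/EBP-ATF response element (CARE) in genes that make, import or charge amino acids, and it also induces regulators that limit or end the response, such as CHOP (*Ddit3*) and *Trib3*.

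The CARE letters TGATGNAA were searched on both strands of the 500 bases before each start site in the mm9 assembly (NCBIM37), with the start taken from the deposited locus where an annotated coding transcript begins within 200 bases of it. There were 7 matches in 6 of the 10 members, whereas 5.86% of 18332 windows of the same length held a match. The form TGATGCAA was found at 5 positions in 4 members and in 1.2% of the windows. The matches are shown with 10 bases on either side because they are the one promoter feature searched for that is shared by most members, with the motif in capitals and each run written 5′ to 3′ on the strand that holds it:
Asns: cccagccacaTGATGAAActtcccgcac
Atf3: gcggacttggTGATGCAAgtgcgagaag
Chac1: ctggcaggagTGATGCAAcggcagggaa
Ddit3: ggggcggggaTGATGCAAtgtttggcaa
Sesn2: tagggctgcgTGATGAAAcgggacttca
Slc7a11: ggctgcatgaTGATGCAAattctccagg
Slc7a11: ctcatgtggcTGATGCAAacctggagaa
The *Asns* run lies at chr6:7643215-7643242 on the minus strand and its motif begins 50 bases before the start site. That of *Atf3* is at chr1:193007305-193007332, plus strand, and reaches to 110 bases before the start, and that of *Chac1* is at chr2:119176775-119176802, minus strand, 193 bases before it. The *Ddit3* run is at chr10:126727538-126727565, minus strand, 301 bases before the start, and the *Sesn2* run is at chr4:132066658-132066685, plus strand, 304 bases before the start. The *Slc7a11* runs overlap, at chr3:50247565-50247592 on the plus strand and chr3:50247584-50247611 on the minus strand, and their motifs reach to 47 and 66 bases before the start. These letters are not in the windows searched for *Atf4*, *Trib3*, *Psat1* and *Phgdh*. A match describes the sequence, and binding was not measured.

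**Figure D1:**
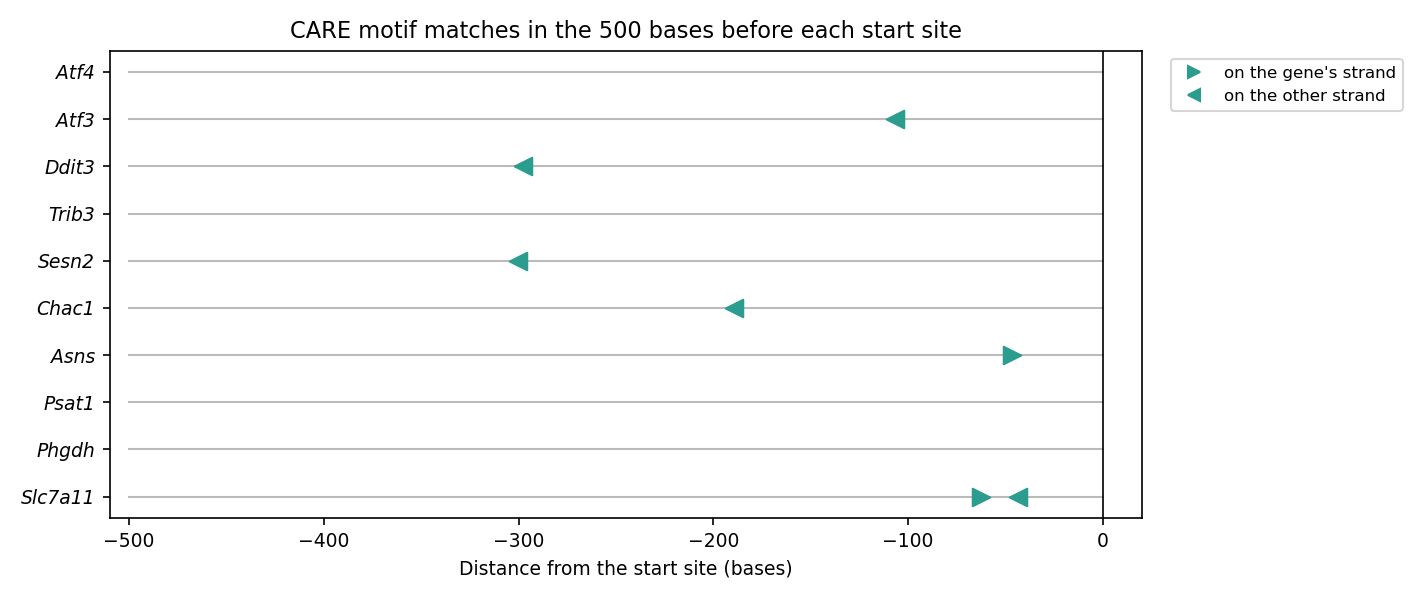
Positions of the 7 CARE matches (triangles) in the 500 bases before the start site of each member. The horizontal axis is the distance from the start site in bases and the direction of a triangle gives the strand. Matches of 6 members lie between 40 and 304 bases before the start, and 4 members have none.

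Of the transcription factors, *Atf4* (chr15:80085614-80087971, plus strand, 3 exons in the annotated coding transcript) was measured at 214 RPKM in WT ESCs, 219 RPKM in KD-labelled ESCs and 223 RPKM in AP3 ESCs. In EBs it stood at 104, 98.0 and 113 RPKM in the same lines. The *Atf4* levels of the lines spanned 1.04-fold in ESCs and 1.16-fold in EBs, every EB library was below every ESC library, and its percentile among background entries lay between 94.6 and 98.0 in all 6 libraries.

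*Atf3* (chr1:192994176-193007212, minus strand, 4 exons), a stress-induced factor that often acts as a repressor, was at 25.1, 18.1 and 18.0 RPKM in WT, KD-labelled and AP3 ESCs. Its EB levels were 1.98, 2.60 and 1.65 RPKM. Every ESC library was above every EB library, and WT was the highest of the ESCs.

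*Ddit3* encodes CHOP, which promotes cell death under prolonged stress. The levels of this gene were 18.6, 14.8 and 30.5 RPKM in the ESC libraries and 14.5, 12.1 and 8.995 RPKM in the EB libraries, in the same order. AP3 had both the highest and the lowest *Ddit3* level of the 6 libraries, at D0 and D3. The deposited locus of *Ddit3*, chr10:126727849-126748842, is the same as that of *Mars*, the methionyl-tRNA synthetase gene on the other strand, and 68 of the 890 exonic bases of *Ddit3* also lie in *Mars* exons. Because the counting is not stated to use strand, *Ddit3* values are less certain than the others.

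Among the feedback regulators and effectors, *Trib3* (chr2:152163161-152169796, minus strand), a pseudokinase that restrains ATF4 and CHOP, was at 18.0 RPKM in WT ESCs, 20.5 RPKM in KD-labelled ESCs and 39.0 RPKM in AP3 ESCs. Its EB levels were 11.2, 9.15 and 11.1 RPKM. The AP3 ESC library stood apart from the other five, which ran from 9.15 to 20.5 RPKM.

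*Chac1* (chr2:119176978-119180060, plus strand) encodes an enzyme that degrades glutathione. It was at 15.3, 21.9 and 24.6 RPKM in the ESC libraries and at 7.69, 5.53 and 7.90 RPKM in the EB libraries. *Sesn2* (chr4:132048722-132066371, minus strand), a leucine sensor that restrains mTORC1, was at 30.1, 33.5 and 34.3 RPKM in ESCs and at 29.5, 24.3 and 27.3 RPKM in EBs. All ESC levels of *Chac1* were above all of its EB levels. The same order held for *Sesn2* by a small margin, and its 6 levels spanned 1.41-fold.

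*Asns* (chr6:7625171-7643182, minus strand, 12 exons), which encodes asparagine synthetase, was at 157 RPKM in WT ESCs, 179 RPKM in KD-labelled ESCs and 296 RPKM in AP3 ESCs. In EBs it was at 156, 116 and 147 RPKM. As for *Trib3*, the AP3 ESC library was above all others, and *Asns* was the most abundant member in that library.

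The serine synthesis enzymes gave another order of the libraries. *Psat1* (chr19:15979622-15999515, minus strand), phosphoserine aminotransferase, was at 132, 194 and 172 RPKM in ESCs and at 101, 97.4 and 119 RPKM in EBs. *Phgdh* (chr3:98117094-98143892, minus strand), whose product opens the pathway, was at 48.9, 74.2 and 72.4 RPKM in ESCs and at 60.5, 60.3 and 64.0 RPKM in EBs. For both genes the KD-labelled ESC library was the highest and WT the lowest of the ESCs.

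*Slc7a11* (chr3:50168858-50247535, minus strand), the cystine importer of system xc-, was the least abundant member in every ESC library, at 5.97, 5.96 and 4.73 RPKM, with 6.81, 6.43 and 8.45 RPKM in EBs. Its highest and lowest levels were both in AP3, in the reverse order of *Ddit3*. Over the 10 members, the highest level was in the AP3 ESC library for 6 (*Atf4*, *Ddit3*, *Trib3*, *Sesn2*, *Chac1* and *Asns*), and the lowest was in the KD-labelled EB library for 6 (*Atf4*, *Trib3*, *Sesn2*, *Chac1*, *Asns* and *Psat1*).

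**Figure D2:**
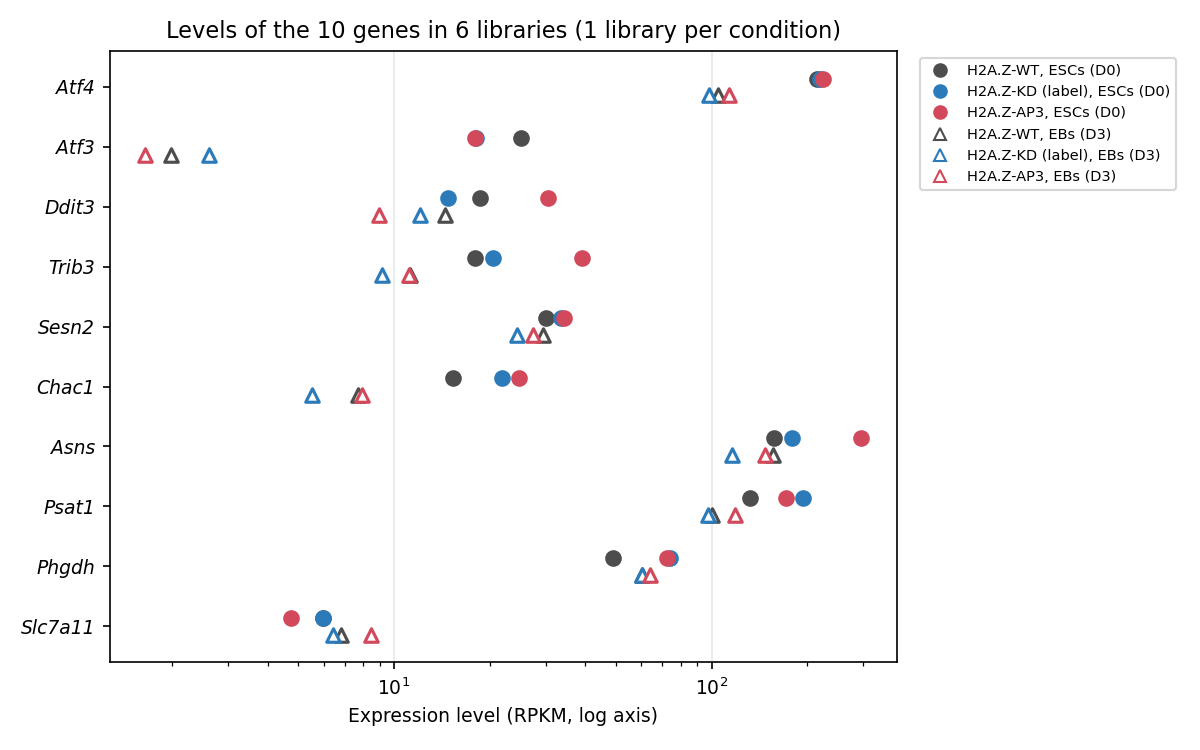
Levels of the 10 members in RPKM on a log axis, with 1 point for each library (filled circles for ESCs, open triangles for EBs, colours for lines). AP3 ESCs stand to the right for *Trib3* (39.0 RPKM) and *Asns* (296 RPKM), the 3 EB libraries stand far to the left for *Atf3* (1.65 to 2.60 RPKM), and the WT and KD-labelled ESC points of *Slc7a11* coincide (5.97 and 5.96 RPKM).

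The comparison of AP3 with WT ESCs asks whether the mutation of the acidic patch alters expression before differentiation. A gene was called higher or lower when its RPKM ratio passed 1.5-fold. With 1 library per condition a comparison of lines cannot be checked against a replicate and has no p-value, and the 95% intervals beside the ratios cover only the counting error of approximate read numbers. PCR copies could not be told from separate molecules. In AP3 ESCs 4 members were called higher and none lower, against 6.8% of background entries called higher and 5.49% called lower. The median log2 ratio of the members was 0.47, against 0.00 over the background.

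The 4 members called higher in AP3 ESCs were *Trib3*, *Asns*, *Ddit3* and *Chac1*. *Trib3* was 2.16-fold higher (interval, 1.98 to 2.37) and *Asns* 1.88-fold higher (1.82 to 1.94), placing them at percentiles 98.4 and 97.4 of the background ratios. For *Ddit3* the ratio was 1.64 (1.43 to 1.89) and for *Chac1* it was 1.61 (1.44 to 1.80), so that the lower bounds of both lie under the threshold. *Phgdh* stayed just under it at 1.48-fold (1.40 to 1.57), and *Psat1* was 1.30-fold higher.

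The other four members moved little or the other way. *Atf4* itself was at 1.04-fold (1.01 to 1.08) and *Sesn2* at 1.14-fold. *Atf3* was 1.40-fold lower in AP3 (1.27 to 1.53), and *Slc7a11* was 1.26-fold lower (1.16 to 1.38), both short of the threshold. The called members therefore include an enzyme, a feedback pseudokinase, a cell death factor and a glutathione-degrading enzyme, while the transcript of the factor that heads the pathway was nearly level. Fibroblast markers moved with this result: the summed level of 8 markers was 27.9 RPKM in WT, 24.2 RPKM in KD-labelled and 47.3 RPKM in AP3 ESCs. Of the 4 with a mean of at least 1 RPKM, 2 were called higher in AP3 than in WT ESCs and 0 lower. Their median log2 ratio was 0.57, and the background shares were 6.8% and 5.49%. In WT and AP3 ESCs *Col1a2* was at 12.9 and 22.5 RPKM and *Col1a1* at 9.76 and 15.5 RPKM. *Dcn* was at 0.321 and 2.46 RPKM, *Lum* at 0 and 0.333 RPKM and *Postn* at 0.112 and 0 RPKM. The part of these markers in the result was not tested.

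Cell state markers moved in AP3 ESCs as well. Of 7 ESC markers 3 were called lower than in WT and 0 higher, namely *Dppa3* (37.9 RPKM in WT, 16.6 RPKM in AP3), *Klf4* (121 and 65.9 RPKM) and *Sox2* (191 and 110 RPKM), while *Pou5f1* was at 421 and 540 RPKM. Of 7 early EB markers with a mean of at least 1 RPKM, 3 were called higher and 2 lower. The endoderm factor genes *Gata6* (2.96 and 9.84 RPKM), *Sox17* (0.974 and 2.70 RPKM) and *Foxa2* (0.420 and 1.41 RPKM) were those called higher, and *Otx2* (4.22 and 1.37 RPKM) and *Fgf5* (0.539 and 0.106 RPKM) were those called lower. *Klf4*, *Sox2*, *Pou5f1*, *Sox17*, *Foxa2* and *Fgf5* fell outside the rule for named genes and were named after their values were seen. The part of these markers in the change of the 4 members was not tested. In bulk samples more cells of a type and more RNA per cell cannot be told apart.

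In EBs the same comparison gave 0 members called higher and 1 called lower in AP3, against 4.05% and 5.21% of the background, and a single call among 10 genes is near these shares. The member called lower was *Ddit3*, at a level 1.61-fold below WT (interval, 1.32 to 1.96). The 3 other members that had been called higher in ESCs were close to WT in EBs, with ratios of 0.99 for *Trib3* (0.87 to 1.13), 0.94 for *Asns* (0.91 to 0.97) and 1.03 for *Chac1* (0.86 to 1.22). *Slc7a11* was 1.24-fold higher (1.15 to 1.34). The median log2 ratio of the members was 0.01, against -0.00 over the background. In the same EBs 3 of 4 fibroblast markers were called higher in AP3 and 1 lower (median 0.72), with *Col1a2* at 1.30 RPKM in WT and 2.36 RPKM in AP3.

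The KD-labelled library was compared with WT in the same way. In ESCs 1 member was called higher and none lower, against 2.94% and 4.02% of the background, which again puts 1 call among 10 near the shares of all entries, and the median log2 ratio was 0.17 against -0.03. *Phgdh* was the member called, at 1.52-fold (interval, 1.42 to 1.62), with *Psat1* next at 1.47-fold (1.42 to 1.52) and *Chac1* at 1.43-fold (1.26 to 1.62). *Asns* and *Trib3* were both at 1.14-fold. *Atf3* was 1.39-fold lower and *Ddit3* 1.26-fold lower.

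No member was called in either direction in KD-labelled EBs, where 3.23% of the background was called higher and 4.53% lower. The log2 ratio was below 0 for 9 of the 10 members and 45.1% of background entries were above 0. Fibroblast markers moved the same way, with 3 of the 4 that had a mean of at least 1 RPKM called lower (median -0.74), among them *Col1a2* at 1.30 RPKM in WT and 0.591 RPKM in KD-labelled EBs, and their part in this shift was not tested. *Chac1* was 1.39-fold lower (1.16 to 1.67) and *Asns* 1.35-fold lower (1.30 to 1.40), while *Atf3*, with 80 and 139 approximate reads, was 1.32-fold higher (0.99 to 1.75).

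**Figure D3:**
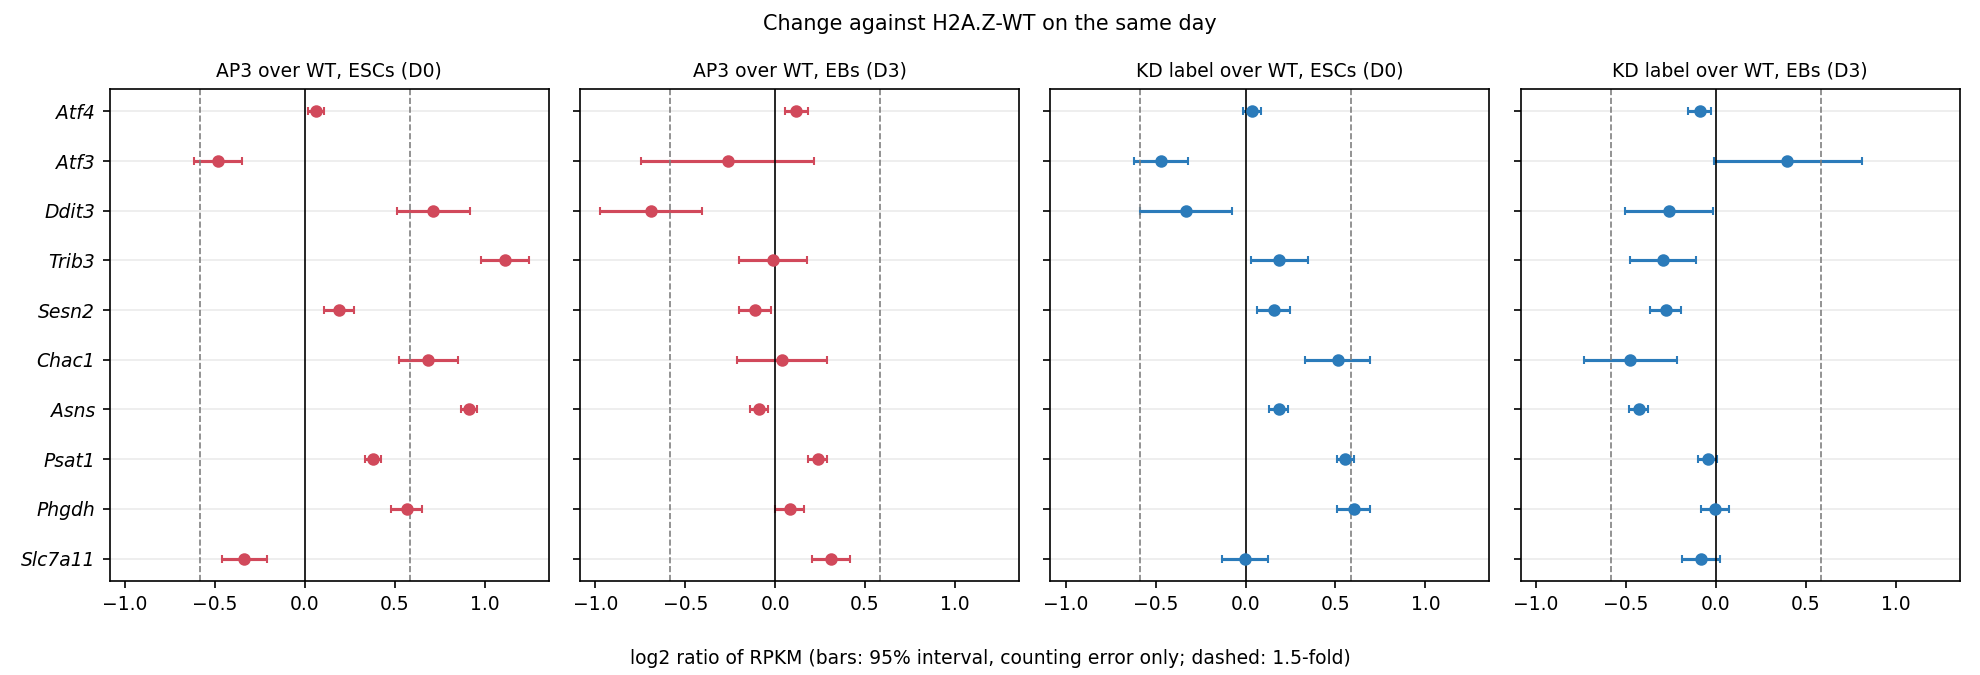
Log2 ratio of RPKM for each member in AP3 (red) and in the KD-labelled libraries (blue) over WT, in ESCs and EBs, with 95% intervals for counting error and dashed lines at 1.5-fold. *Trib3* (1.11), *Asns* (0.91), *Ddit3* (0.72) and *Chac1* (0.69) lie beyond the line in AP3 ESCs, and *Ddit3* (-0.69) lies beyond the opposite line in AP3 EBs.

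AP3 was also set against the KD-labelled library, which shares these libraries with the comparisons above. In ESCs 3 members were called higher and none lower, where the background had 10.5% and 6.13%. *Ddit3* was 2.06-fold higher in AP3 (1.79 to 2.39), *Trib3* 1.90-fold (1.75 to 2.06) and *Asns* 1.65-fold (1.61 to 1.70). *Chac1*, *Phgdh* and *Psat1* differed less, with ratios of 1.13, 0.98 and 0.89. The median log2 ratio was 0.03 for the members and 0.03 for the background. In the same ESCs 3 of 4 fibroblast markers were called higher in AP3 and 0 lower (median 0.92). *Col1a1* was at 7.42 RPKM in the KD-labelled library and 15.5 RPKM in AP3. Of 7 ESC markers 0 were called higher and 3 lower, and of 7 early EB markers 3 were called higher and 2 lower. Of 8 p53 targets 2 were called higher and 0 lower (median 0.43). The part of these lists in the members' calls was not tested.

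In EBs 0 members were called higher and 1 lower in AP3 than in the KD-labelled library, against 5.49% and 5.07% of the background. The member was *Atf3*, 1.58-fold lower (1.18 to 2.14) on 139 and 70 approximate reads. *Chac1* was 1.43-fold higher (1.20 to 1.70), *Slc7a11* 1.32-fold higher (1.23 to 1.41) and *Asns* 1.27-fold higher (1.22 to 1.31). The log2 ratio was above 0 for 8 of the 10 members and for 52.9% of the background. The median was 0.25 for the members and 0.02 for the background. Of 4 fibroblast markers 3 were called higher in AP3 and 1 lower (median 1.36), and their part in this shift was not tested.

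The change from ESCs to EBs was then followed within each line. In WT 4 members fell past 1.5-fold and none rose, where 9.53% of the background fell and 11.4% rose. *Atf3* fell 12.7-fold (interval, 10.1 to 16.2), *Atf4* 2.05-fold (1.97 to 2.14), *Chac1* 1.99-fold (1.70 to 2.34) and *Trib3* 1.61-fold (1.42 to 1.82). *Asns* and *Sesn2* were level between the days in this line, at ratios of 1.00 and 0.98.

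In the KD-labelled line 6 members fell past 1.5-fold and none rose past it, against 8.86% and 11.5% of the background. The fall was 6.95-fold for *Atf3* (5.78 to 8.40), 3.95-fold for *Chac1* (3.41 to 4.60), 2.24-fold for both *Atf4* and *Trib3*, 1.99-fold for *Psat1* (1.93 to 2.06) and 1.54-fold for *Asns* (1.49 to 1.59). In AP3, 6 members fell past 1.5-fold and 1 rose past it, against 11.5% and 10.8% of the background. *Atf3* fell 10.9-fold (8.55 to 14.1), *Trib3* 3.50-fold (3.17 to 3.87), *Ddit3* 3.39-fold (2.88 to 4.03), *Chac1* 3.12-fold (2.74 to 3.57), *Asns* 2.01-fold (1.96 to 2.07) and *Atf4* 1.97-fold (1.90 to 2.04). *Slc7a11* rose 1.79-fold (1.66 to 1.92). Of 8 targets of the oxidative stress factor NRF2, 5 rose past 1.5-fold in AP3 and 0 fell (median 0.78). In WT 2 rose and 1 fell (median 0.30), and the KD-labelled line had the same counts (median 0.18). The part of this list in the rise of *Slc7a11* was not tested.

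*Atf4*, *Atf3*, *Chac1* and *Trib3* fell past 1.5-fold in all 3 lines. Since each line was measured on both days, the change common to the lines was also tested with limma on log2(RPKM + 1), with line as a block and p-values adjusted over all background entries, a test added after the data had been seen. The lines differ in genotype, so that its error includes differences between them. In this fit 5 members fell and 0 rose at an adjusted p below 0.05, against 5.26% and 5.24% of the background, and 0 members rose at an unadjusted p below 0.05 either. *Atf3* changed by -2.79 on the log2 scale (SE 0.16, adjusted p = 0.000187, limma), *Chac1* by -1.42 (SE 0.18, adjusted p = 0.00436), *Trib3* by -1.15 (SE 0.20, adjusted p = 0.0134), *Atf4* by -1.05 (SE 0.12, adjusted p = 0.00274) and *Psat1* by -0.64 (SE 0.15, adjusted p = 0.0346), and all 5 were lower in EBs in each of the 3 lines. Without the WT line or without the KD-labelled line, *Psat1* was no longer called. *Ddit3* (-0.76, adjusted p = 0.112) and *Asns* (-0.54, adjusted p = 0.116) did not pass.

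Median log2 changes of the members were -0.38 in WT, -0.81 in the KD-labelled line and -0.99 in AP3, against 0.04, 0.04 and 0.05 over the background. Differences between the lines in these changes were not tested. Immediate early genes, which respond within minutes to serum and growth factors, moved with the fall of *Atf3*. All 9 on the list fell past 1.5-fold in WT and in the KD-labelled line and 8 of 9 in AP3. *Fosb*, for example, went from 68.3 to 0.129 RPKM in WT. Of 8 p53 targets 4 fell past 1.5-fold in WT, 3 in the KD-labelled line and 5 in AP3, and 0 rose. Their medians were -0.60, -0.41 and -0.76, and 9.53%, 8.86% and 11.5% of the background fell. *Eda2r* went from 22.1 to 9.65 RPKM in WT. Summed fibroblast markers were at 24.2 to 47.3 RPKM in ESCs and 7.47 to 13.0 RPKM in EBs. *Thy1*, which went from 1.74 to 9.19 RPKM in WT, holds up the EB sums. *Col1a2* went from 12.9 to 1.30 RPKM in WT, from 11.8 to 0.591 RPKM in the KD-labelled line and from 22.5 to 2.36 RPKM in AP3, and the median log2 changes of the 4 fibroblast markers with a mean of at least 1 RPKM were -2.48, -2.70 and -2.33. The part of these lists in the members' changes was not tested.

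**Figure D4:**
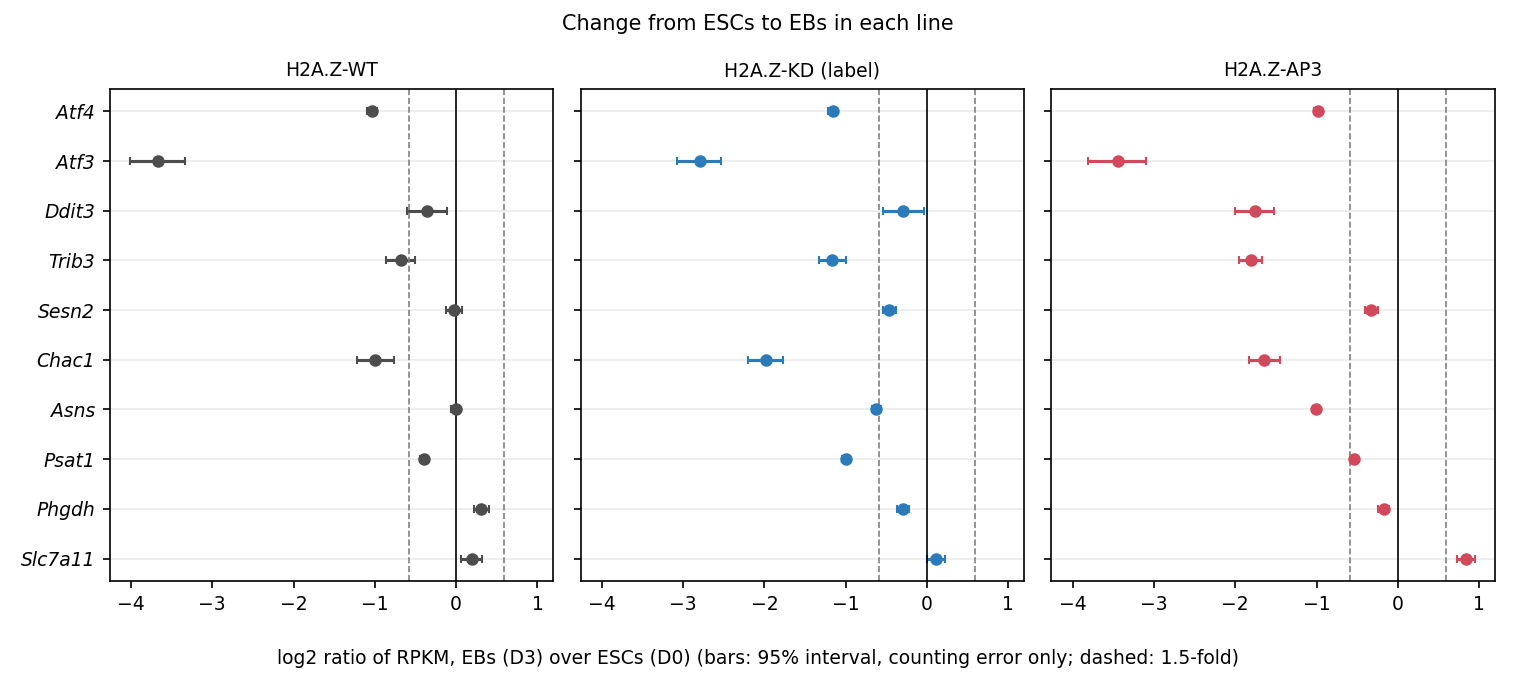
Log2 ratio of RPKM in EBs over ESCs for each member within WT, the KD-labelled line and AP3, with 95% intervals for counting error and dashed lines at 1.5-fold. *Atf3* has the most negative value in each line (-3.66, -2.80 and -3.44), *Asns* goes from -0.01 in WT to -1.01 in AP3, and *Slc7a11* lies above 0 in all 3.

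Other genes of the pathway were taken from 4 lists of ATF4-linked regulators, amino acid enzymes, amino acid transporters and aminoacyl-tRNA synthetases, with 44 genes of which 41 had a mean of at least 1 RPKM. In AP3 over WT ESCs 10 of the 41 were called higher and 0 lower, beside background shares of 6.8% and 5.49%, and 38 had a log2 ratio above 0, beside 50.2% of the background. Their median log2 ratio was 0.41. In KD-labelled over WT ESCs 35 of the 41 were above 0, beside 44.7% of the background. Those called higher in AP3 ESCs are named here after their values were seen, apart from *Nupr1*, *Mthfd2* and *Slc7a5*. Those exceptions had the largest increase among genes of their lists with a mean of at least 5 RPKM.

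Among 10 regulators, *Nupr1*, a small stress-induced chromatin protein, had 19.6 RPKM in WT and 76.0 RPKM in AP3 ESCs. The mTORC1 inhibitor gene *Ddit4* had 66.0 and 113 RPKM, and the secreted factor genes *Gdf15* and *Stc2* had 4.15 and 8.30 RPKM and 3.16 and 6.09 RPKM. Among 11 enzymes, *Mthfd2* of mitochondrial one-carbon metabolism had 77.2 and 135 RPKM and *Cth*, which makes cysteine from cystathionine, had 22.1 and 38.1 RPKM. The serine enzyme *Psph* had 13.4 and 20.2 RPKM and the alanine aminotransferase *Gpt2* had 31.2 and 49.1 RPKM. Among 8 transporters, the large neutral amino acid transporter *Slc7a5* had 88.1 and 138 RPKM and the glycine transporter *Slc6a9* had 1.85 and 3.28 RPKM. None of the 12 genes for tRNA synthetases and a tRNA exporter was called, at a median log2 ratio of 0.29.

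Lists of other stress pathways were counted in the same comparison. Of 14 chaperones and other targets of the endoplasmic reticulum factors ATF6 and XBP1, 0 were called higher and 1 lower (*Dnajb9*, 24.2 and 15.7 RPKM), with a median of 0.15. None of 8 NRF2 targets (median -0.10) or 8 p53 targets (median 0.17) was called in either direction. Of 4 genes for eIF2alpha and its kinases, only *Eif2ak1*, the heme-regulated kinase, was called, at 14.6 RPKM in WT and 9.36 RPKM in AP3. Of 5 heat shock genes 0 were called higher and 1 lower (*Hsph1*, 47.8 and 31.6 RPKM), with a median of -0.34. Immediate early genes had 1 of 9 higher (*Ier3*, 15.0 and 38.5 RPKM) and 4 lower, among them *Fos* (149 and 66.3 RPKM), with a median of -0.54. No difference between lists was tested.

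**Figure D5:**
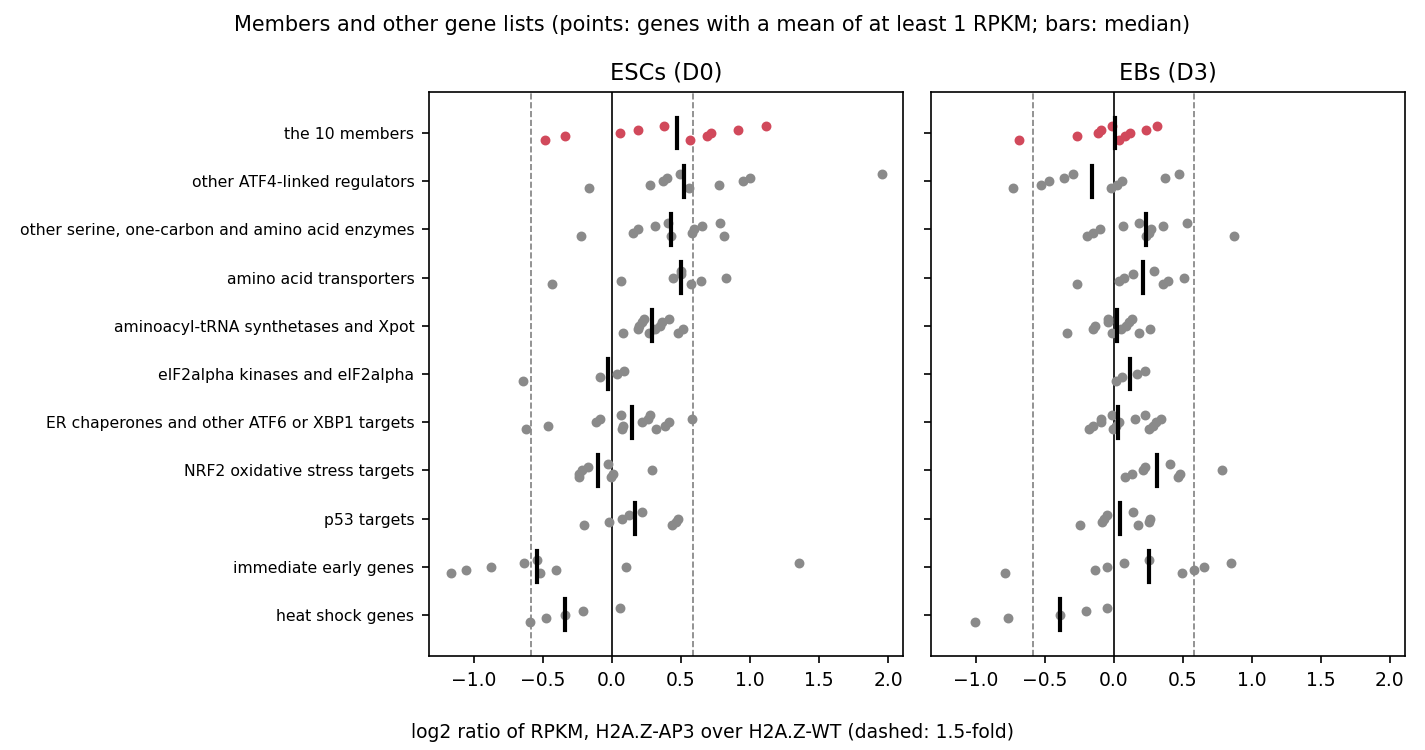
Log2 ratio of RPKM in AP3 over WT for the members (red) and for 10 other lists (grey), with 1 point for each gene, a black bar at the median and dashed lines at 1.5-fold, in ESCs and EBs. In ESCs the medians are 0.47 for the members and 0.52, 0.43, 0.50 and 0.29 for the ATF4-linked lists, whereas in EBs that of the members is 0.01.

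In EBs 1 of the 41 ATF4-linked genes was called higher in AP3 than in WT and 1 lower, with a median of 0.07. Both counts are below the background shares of 4.05% and 5.21%. They were *Cbs*, the enzyme before *Cth* in cysteine synthesis, with 2.29 RPKM in WT and 4.20 RPKM in AP3, and *Atf5*, a factor related to ATF4, with 14.5 and 8.75 RPKM. In KD-labelled ESCs 3 of the 41 were called higher and 2 lower than in WT (median 0.28, background 2.94% and 4.02%), and in KD-labelled EBs 0 and 3 (median -0.16, background 3.23% and 4.53%). The log2 ratio was above 0 for 35 of the 41 in KD-labelled ESCs and for 8 in KD-labelled EBs. The background had 44.7% and 45.1% above 0. In AP3 over the KD-labelled library the counts were 3 higher and 1 lower in ESCs (median 0.16, background 10.5% and 6.13%) and 6 and 0 in EBs (median 0.22, background 5.49% and 5.07%). In these EBs 3 of 4 fibroblast markers were called higher in AP3 and 1 lower (median 1.36), with *Col1a2* at 0.591 RPKM in the KD-labelled library and 2.36 RPKM in AP3, and their part in the counts was not tested. From ESCs to EBs 6 of the 41 fell past 1.5-fold in WT (background 9.53%), 20 in the KD-labelled line (background 8.86%) and 14 in AP3 (background 11.5%). The medians were -0.10, -0.54 and -0.46. In the same lines 1, 0 and 1 rose past 1.5-fold, below the background shares of 11.4%, 11.5% and 10.8%.

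*Phgdh* and *Slc7a11* departed from the profile of the other members over the 6 libraries. The Pearson r of each member with the median centred profile of the 10 was taken on log2(RPKM + 1). It was 0.99 for *Trib3*, 0.97 for *Chac1*, 0.94 for *Asns*, 0.92 for *Sesn2* and 0.90 for *Atf4*. For *Psat1* it was 0.88, for *Ddit3* 0.86, for *Atf3* 0.82, for *Phgdh* 0.44 and for *Slc7a11* -0.81. Each member is part of that median. The 5 other genes of at least 5 RPKM on average with the highest r were *Gpt2* (0.990), *Tsc22d1* (0.986), *Pcolce* (0.986), *Slc1a5* (0.985) and *Ccl2* (0.984). *Gpt2* and the glutamine transporter gene *Slc1a5* are on the lists above. *Pcolce*, a collagen-processing protein gene, was at 29.7, 33.3 and 47.3 RPKM in WT, KD-labelled and AP3 ESCs and at 13.2 to 16.0 RPKM in EBs. *Ccl2*, a chemokine gene, was at 7.05, 11.9 and 37.6 RPKM in ESCs and at 0.260 to 1.15 RPKM in EBs. These correlations share the same 6 libraries and are given as a description only.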

How the data were processed

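The authors prepared oligo(dT)-selected RNA as Illumina libraries, and the submitters' processing notes name Bowtie 0.12.7, TopHat and Cufflinks 1.3.0 and the mm9 build. The deposited RPKM values per gene were used as given. The authors' log2 ratios between lines in the same table were not used. The deposited table holds 1 column for each of 6 libraries. Log2 ratios were computed as log2((RPKM + 0.001)/(RPKM + 0.001)), and a gene was called past 1.5-fold. Shares of the background are over entries with a mean of at least 1 RPKM. Depth and approximate reads came from the spacing of low deposited values and the longest coding transcript, and ratios carry exact 95% intervals for counting error at the lowest depth estimate. The change from ESCs to EBs over the lines was fitted with limma 3.58.1 (R 4.3.3) on log2(RPKM + 1) of background entries, with line as a block and Benjamini-Hochberg adjustment, a test added after the data had been seen. Each line was measured on both days, which gives the pairing. Alternatives were pseudocounts of 0.1 and 1, no filter and a filter at 5 RPKM, upper quartile scaling, centring of each pair, summed entries of a symbol and a 2-fold threshold. Deposited starts were raised by 1, and 99.1% of coding entries overlapped GENCODE genes of NCBIM37. The named genes are the 10 members, *H2afz*, and, from each other list in a comparison whose list counts are described, the gene with the largest increase and the one with the largest decrease past 1.5-fold among those with a mean of at least 5 RPKM, and the 5 genes of most similar profile. Genes named outside this rule are said to be so in the text or serve as markers. Members and lists were chosen with earlier results of these data known. Scripts were tested on simulated data and ran under Python 3.11.15 with scipy 1.17.1, pandas 2.3.3, matplotlib 3.10.9 and numpy 2.4.6.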

Additional observations from a re-analysis of the deposited data

Results flagged for a closer look

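*Ddit3* was called in opposite directions on the 2 days: the log2 ratio of AP3 to WT was 0.72 in ESCs and -0.69 in EBs. With 1 library per condition the difference between the days was not tested, and the *Ddit3* entry shares its deposited locus with *Mars*.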

How the results depend on the processing

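No member's log2 ratio that was called changed sign under the alternatives run. Shares in parentheses are those of background entries called under the same setting. At a 2-fold threshold 1 member was higher in AP3 than in WT ESCs (2.05%) and 0 were lower in EBs (1.29%), 0 were higher in KD-labelled than in WT ESCs (0.912%), 1 was higher in AP3 than in KD-labelled ESCs (3.27%) and 0 were lower in EBs (1.25%), 2 fell from ESCs to EBs in WT (4.32%), and 0 rose in AP3 (3.60%). Centring the log2 ratios of a pair on their background median gave 2 members higher in KD-labelled than in WT ESCs (3.35%). With a pseudocount of 1 RPKM 0 members were lower in AP3 than in KD-labelled EBs (2.72%). The construction of these settings accounts for the changes: the higher threshold leaves out members between 1.5-fold and 2-fold, the larger pseudocount draws the ratio of *Atf3*, low in EBs, under the threshold, and the shift brings a member past it. With that pseudocount the log2 change of *Atf3* from ESCs to EBs was -3.13 in WT, -2.41 in the KD-labelled line and -2.84 in AP3. The other settings left the counts of members within 1.5 times. No replicate could be left out within a condition. In the fit of EBs over ESCs across the lines, which was added after the data had been seen, 5 members fell and 0 rose with the line as replicate block, and the counts were the same without the block (5.49% and 6.09%) and with a pseudocount of 0.1 (5.36% and 5.35%). Leaving out each line in turn gave 4 to 5 members that fell and 0 that rose. The background shares that fell and rose were 1.92% and 1.17% without WT, 4.27% and 3.38% without the KD-labelled line, and 7.54% and 9.27% without AP3. At an estimated 16.35 to 31.6 M reads, counting error limits *Atf3* in EBs most, on 70 to 139 reads, and the spread between cultures is not known.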
